A study of Mus musculus with 8 samples.

Results

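Oocyte transcription and chromatin factors are 8 genes whose RNAs are laid down in the growing mouse egg: Nobox, Lhx8, Sohlh1, Sohlh2, Figla, Npm2, H1f8 and Dppa3. They were chosen by name, and each was read from a transcript cluster annotated to that gene alone, the brightest over the 8 arrays where a gene had several. All 8 were found among the 30701 genes measured, H1f8 under its older symbol H1foo. RNA was measured on Affymetrix whole-transcript arrays in 8 pools of 100 late 2-cell embryos from B6C3F1 x CD1 matings, in 4 groups of 2 pools. One group was injected into the ooplasm, at the mid-pronuclear stage, with Trim21 mRNA and an antibody to COPS3 together. Another received the antibody alone, a further group Trim21 mRNA alone, and the last was left non-manipulated in the incubator. TRIM21 is a ubiquitin ligase that takes antibody-bound protein to the proteasome, and COPS3 belongs to the COP9 signalosome, a regulator of cullin ubiquitin ligases.

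All females received 10 IU each of PMSG and hCG, 48 h apart. The embryos were cultured for 28 h after treatment by the protocol, against 24 h of in vitro culture in the age label. Per the labels, cleavage was stunted and many zygotes stayed undivided in both groups with antibody, and was normal in both groups without it. No group received a control antibody, and none was injected with neither agent. Every comparison with non-manipulated embryos therefore also sets injected against uninjected embryos. The 4 groups were prepared on separate days within a week, with both pools of a group on the same day, so day and group cannot be told apart. Every p below measures the spread between pools of the same day only.

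The mammalian oocyte builds its store of RNA during growth under a small set of transcription factors. NOBOX and LHX8 are homeobox proteins, and FIGLA, SOHLH1 and SOHLH2 are basic helix-loop-helix proteins, a class that binds the E-box, CANNTG. In mice, loss of Nobox, Lhx8, Sohlh1, Sohlh2 or Figla stops early follicle formation or growth. NPM2 (nucleoplasmin 2) is a histone chaperone of the egg, H1F8 is its linker histone, and DPPA3 (also called Stella) protects the maternal genome from loss of DNA methylation after fertilization. Much of the maternal RNA store is cleared by the 2-cell stage, when the embryo's own transcription starts.

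The stretches just upstream of a start site are shown for 4 members that changed, because the E-box is the site that the helix-loop-helix members of the group are known to bind. Sequences are from a table of RefSeq promoters on GRCm38.p6, in which 6 of the 8 genes were found, and only the 250 bases before the start used in that table were searched. For Nobox that start lies inside the gene's annotated span, so its window is not upstream of the whole gene. They run 5′ to 3′ on the gene's strand, with each E-box, CANNTG on either strand, in capitals. For Nobox, 30 bases around each of its 2 E-boxes are given.
Nobox, chr6:43309674-43309703, minus strand: cagcccccacccCAGGTGtgcggtgcctcg
Nobox, chr6:43309587-43309616, minus strand: gcagactccacaCACCTGgccaccccacgg
H1f8, chr6:115944681-115944930, plus strand: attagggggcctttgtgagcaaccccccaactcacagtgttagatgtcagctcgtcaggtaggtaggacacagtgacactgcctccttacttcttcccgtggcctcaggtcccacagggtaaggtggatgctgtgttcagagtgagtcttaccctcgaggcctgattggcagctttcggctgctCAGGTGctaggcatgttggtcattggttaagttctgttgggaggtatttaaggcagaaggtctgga
Sohlh2, chr3:55181794-55182043, plus strand: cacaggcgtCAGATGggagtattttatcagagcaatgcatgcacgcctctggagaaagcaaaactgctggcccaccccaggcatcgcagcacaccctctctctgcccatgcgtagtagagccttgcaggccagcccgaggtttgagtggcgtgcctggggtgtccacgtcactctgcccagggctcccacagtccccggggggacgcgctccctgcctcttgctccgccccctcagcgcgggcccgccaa
Lhx8, chr3:154330561-154330810, minus strand: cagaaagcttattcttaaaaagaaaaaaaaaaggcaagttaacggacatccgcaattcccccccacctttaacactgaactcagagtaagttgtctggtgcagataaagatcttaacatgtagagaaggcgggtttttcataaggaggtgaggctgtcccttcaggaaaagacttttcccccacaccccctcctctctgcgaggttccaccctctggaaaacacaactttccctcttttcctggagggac
The E-boxes of Nobox began 137 and 50 bases before the start used in the promoter table, and that of H1f8 began 66 bases before it. Sohlh2 had 1 E-box, 241 bases before the start, and Lhx8 had 0. Figla had 2 and Sohlh1 had 5, of which 3 were CACGTG. Over 32851 mouse windows of the same length, 66.2% held the E-box, and 6.02% held its form CACGTG. The NOBOX motif, TAATTA or TAATTG, was searched on both strands too and was in 0 of the 6 windows, against 11.3% of all windows. These matches describe the letters of the windows only.

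Values are deposited log2 levels of a transcript cluster, so a difference of 1 is a 2-fold change, and levels of different genes are not compared. The median gene stood at 5.36 to 5.67 on the 8 arrays, higher on the Trim21 mRNA plus antibody arrays (5.58 and 5.67) than on the others (5.36 to 5.57), and the median of all genes differed by 0.21 between Trim21 mRNA plus antibody and Trim21 mRNA. The 2 antibody-alone pools stood apart from each other: 4615 genes differed by more than 2-fold between them, against 809 between the Trim21 mRNA plus antibody pools, 97 between the Trim21 mRNA pools and 49 between the non-manipulated pools. The levels of all clusters were also less spread with antibody. Their standard deviation was 2.38 and 2.27 with Trim21 mRNA plus antibody, 2.45 and 2.6 with antibody alone, and 2.66 to 2.71 without antibody. The highest value was shared by 169 and 151 clusters with Trim21 mRNA plus antibody and 136 in antibody-alone replicate 1, against 1 on each other array. No member differed by more than 2-fold between the pools of a group, and the largest gap was 0.96, for Sohlh1 in the antibody-alone pools. Trim21 itself was at 10.40 and 10.30 in Trim21 mRNA plus antibody, 6.76 and 6.37 in antibody alone, 9.77 and 10.14 in Trim21 mRNA, and 6.27 and 5.65 in non-manipulated embryos, as the labels name them. Cops3 mRNA was at 9.06 and 9.40, 8.85 and 8.86, 10.00 and 9.97, and 9.50 and 9.52 in the same 4 groups, and the method acts on protein. In these pools fewer cells with an RNA and less of that RNA per cell cannot be told apart.

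Of the 8 members, 5 were higher in embryos with Trim21 mRNA plus antibody than in embryos with Trim21 mRNA alone (limma, Benjamini-Hochberg adjusted p under 0.05 over all genes): Nobox, Sohlh2, Lhx8, Npm2 and H1f8. Lower members numbered 0 at that threshold, and 1 (Dppa3) at an unadjusted p under 0.05. In this comparison 8.73% of all genes were called higher and 14.5% lower, 23.2% in all. The median difference of the 8 members was 1.11, against 0.21 for all genes. Antibody given without Trim21 mRNA gave 1 higher member, Sohlh2, against non-manipulated embryos, where 2.76% of all genes were called higher and 10.0% were called in all. That call was lost in 10 of 18 alternative settings.

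Nobox, the homeobox factor that drives many oocyte-specific genes in mouse follicles, moved furthest of the transcription factors. It stood at 11.29 and 11.34 with Trim21 mRNA plus antibody, 8.87 and 9.46 with antibody alone, 9.15 and 9.25 with Trim21 mRNA, and 9.04 and 8.99 in non-manipulated embryos (transcript cluster TC0600002187.mm.1). Both pools with Trim21 mRNA plus antibody lay above the other 6 pools, which themselves overlapped in part. Nobox was 4.33-fold higher with Trim21 mRNA plus antibody than with Trim21 mRNA (difference 2.12 ± 0.21, standard error of limma's fit, n = 2 pools per group; adjusted p = 0.00062). It was 4.44-fold higher than with antibody alone (2.15 ± 0.21, limma adjusted p = 0.0012) and 4.92-fold higher than in non-manipulated embryos (2.30 ± 0.21, limma adjusted p = 0.0004). Antibody alone against non-manipulated embryos gave 0.15 ± 0.21 (95% interval −0.35 to 0.65).

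Lhx8, a LIM homeobox factor needed for primordial follicles in mice, moved less. Its levels were 10.10 and 9.77 with Trim21 mRNA plus antibody, 9.67 and 9.40 with antibody alone, 8.84 and 8.96 with Trim21 mRNA, and 9.35 and 9.29 in non-manipulated embryos (TC0300003175.mm.1). The Trim21 mRNA pools were the lowest of the 8 and the Trim21 mRNA plus antibody pools the highest. Lhx8 was 2.05-fold higher with Trim21 mRNA plus antibody than with Trim21 mRNA (1.04 ± 0.18, limma adjusted p = 0.0071), and 1.53-fold higher than in non-manipulated embryos (0.62 ± 0.18, limma adjusted p = 0.042). Part of the first difference lay in its Trim21 mRNA level, which was 0.42 ± 0.18 below that of non-manipulated embryos without passing the threshold (limma adjusted p = 0.81). Without Trim21 mRNA replicate 1 the first call was lost (0.97, limma adjusted p = 0.07), and the second was lost in 10 of 19 alternative settings (limma adjusted p up to 0.2), among them centring each array on its median (0.37, adjusted p = 0.18).

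Sohlh2, a helix-loop-helix partner of SOHLH1 in the germ line, was high in both groups with antibody. It stood at 7.41 and 7.26 with Trim21 mRNA plus antibody, 7.27 and 7.81 with antibody alone, 5.79 and 6.03 with Trim21 mRNA, and 6.59 and 6.28 in non-manipulated embryos (TC0300000418.mm.1). All 4 pools with antibody lay above all 4 without it. Sohlh2 was 2.69-fold higher with Trim21 mRNA plus antibody than with Trim21 mRNA (1.42 ± 0.23, limma adjusted p = 0.0049), and 2.15-fold higher with antibody alone than in non-manipulated embryos (1.10 ± 0.23, limma adjusted p = 0.029). The 2 differences were not separable by the interaction, the first minus the second, at 0.32 ± 0.32 (95% interval −0.45 to 1.09, limma adjusted p = 0.80). It was 1.87-fold higher with Trim21 mRNA plus antibody than in non-manipulated embryos (0.90 ± 0.23, limma adjusted p = 0.026), a call that was lost in 7 of 19 alternative settings (limma adjusted p up to 0.17). The call against Trim21 mRNA was lost without Trim21 mRNA replicate 1 (1.30, limma adjusted p = 0.051).

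Sohlh1, which acts upstream of Lhx8 in mouse ovaries, had its highest levels with antibody alone. The values were 5.64 and 5.33 with Trim21 mRNA plus antibody, 7.08 and 6.12 with antibody alone, 5.30 and 5.21 with Trim21 mRNA, and 5.63 and 5.53 in non-manipulated embryos (TC0200003169.mm.1). Only the antibody-alone pools lay above the rest, and they were also the pair furthest apart. The other pools were near the median gene of their array, and no detection call came with the values. Antibody alone exceeded non-manipulated embryos by 1.02 ± 0.31 (limma adjusted p = 0.088), and Trim21 mRNA plus antibody was below antibody alone by 1.11 ± 0.31 (difference −1.11, limma adjusted p = 0.056); neither passed the threshold. Without antibody-alone replicate 2, which left 1 pool in that group, the 2 differences were 1.50 and −1.59. Without replicate 1 they were 0.54 and −0.64. With Trim21 mRNA plus antibody against Trim21 mRNA the difference was 0.23 ± 0.31 (95% interval −0.50 to 0.96).

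Figla, the helix-loop-helix factor needed for the zona pellucida genes in mice, did not pass the test. It stood at 4.19 and 4.85 with Trim21 mRNA plus antibody, 4.17 and 4.40 with antibody alone, 3.89 and 4.00 with Trim21 mRNA, and 3.86 and 3.96 in non-manipulated embryos (TC0600000977.mm.1). The pools with antibody were above those without it, and the difference of Trim21 mRNA plus antibody from Trim21 mRNA was 0.58 ± 0.24 (limma adjusted p = 0.12). No detection call came with the values, so whether this cluster was above background is not known.

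**Figure D1:**
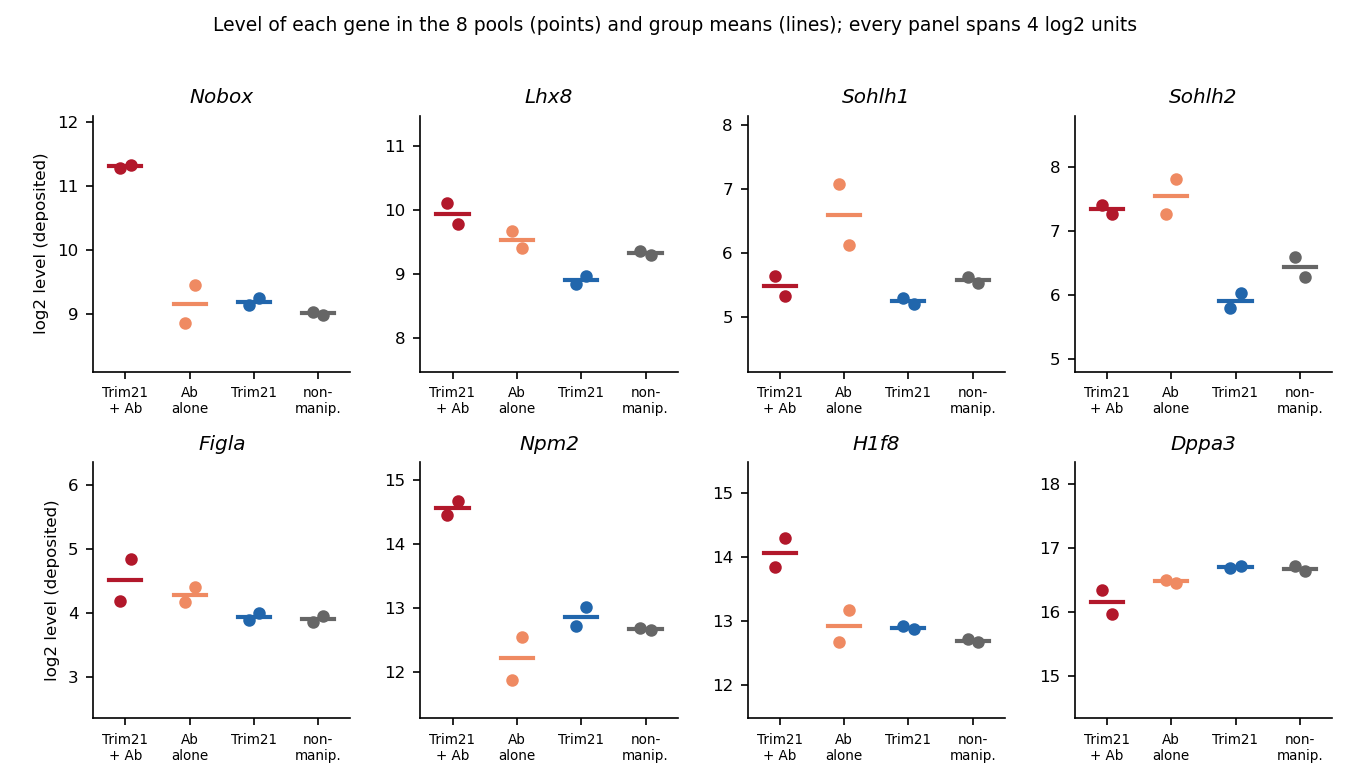
Log2 level of each of the 8 genes (1 panel per gene, y axis in log2 units of the deposited values) in the 2 pools of each group, with a bar at the group mean. The pools with Trim21 mRNA plus antibody are the highest for Nobox (11.29 and 11.34), Lhx8 (10.10 and 9.77), Npm2 (14.45 and 14.67) and H1f8 (13.84 and 14.29). Sohlh1 is highest with antibody alone (7.08 and 6.12).

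Npm2, whose protein exchanges histones and organizes chromatin in the egg and early embryo, was like Nobox highest with Trim21 mRNA plus antibody. It stood at 14.45 and 14.67 with Trim21 mRNA plus antibody, 11.88 and 12.54 with antibody alone, 12.71 and 13.01 with Trim21 mRNA, and 12.69 and 12.65 in non-manipulated embryos (TC1400002348.mm.1). The antibody-alone pools were the lowest of the 8 and the Trim21 mRNA plus antibody pools the highest. Npm2 was 3.25-fold higher with Trim21 mRNA plus antibody than with Trim21 mRNA (1.70 ± 0.25, limma adjusted p = 0.0031), 5.10-fold higher than with antibody alone (2.35 ± 0.25, adjusted p = 0.0015) and 3.71-fold higher than in non-manipulated embryos (1.89 ± 0.25, adjusted p = 0.0018). Antibody alone against non-manipulated embryos gave −0.46 ± 0.25 (limma adjusted p = 0.26). That last difference was −0.79 without antibody-alone replicate 2 and −0.13 without replicate 1, with 1 pool left in that group.

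H1f8, the linker histone that the egg uses in place of somatic types, was also highest with both agents. The values were 13.84 and 14.29 with Trim21 mRNA plus antibody, 12.66 and 13.16 with antibody alone, 12.91 and 12.87 with Trim21 mRNA, and 12.71 and 12.67 in non-manipulated embryos (TC0600001290.mm.1). The other 6 pools lay within 12.66 to 13.16, all below both Trim21 mRNA plus antibody pools. H1f8 was 2.26-fold higher with Trim21 mRNA plus antibody than with Trim21 mRNA (1.18 ± 0.23, limma adjusted p = 0.011), 2.23-fold higher than with antibody alone (1.15 ± 0.23, adjusted p = 0.017) and 2.59-fold higher than in non-manipulated embryos (1.37 ± 0.23, adjusted p = 0.005). The first call was lost without Trim21 mRNA replicate 1 or 2 (limma adjusted p = 0.072 and 0.077) or without Trim21 mRNA plus antibody replicate 2 (0.061), and the second in 3 settings (adjusted p up to 0.13).

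Dppa3 did not pass the test. For Trim21 mRNA plus antibody against Trim21 mRNA, it alone of the 8 members had a negative difference on the deposited scale. It stood at 16.35 and 15.97 with Trim21 mRNA plus antibody, 16.51 and 16.46 with antibody alone, 16.69 and 16.72 with Trim21 mRNA, and 16.72 and 16.64 in non-manipulated embryos (TC0600001388.mm.1). The pools with Trim21 mRNA plus antibody were the lowest, and every value lay below the highest level of its array. On those 2 arrays the highest level was 19.09 and 18.88, shared by 169 and 151 clusters, and levels were less spread. What this does to the difference of a gene this bright was not tested. The difference from Trim21 mRNA was −0.55 ± 0.17 (95% interval −0.95 to −0.14, limma adjusted p = 0.063). Its direction turned with the scaling: it was −0.75 (limma adjusted p = 0.03) after each array was centred on its median, 0.39 (adjusted p = 0.067) after quantile normalization and 0.83 (adjusted p = 0.0054) after cyclic loess. Without both antibody-alone arrays the deposited scale gave −0.54 (limma adjusted p = 0.028). In that run, chosen after the data were seen, 46.2% of all genes were called, against 23.2% in the main fit.

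**Figure D2:**
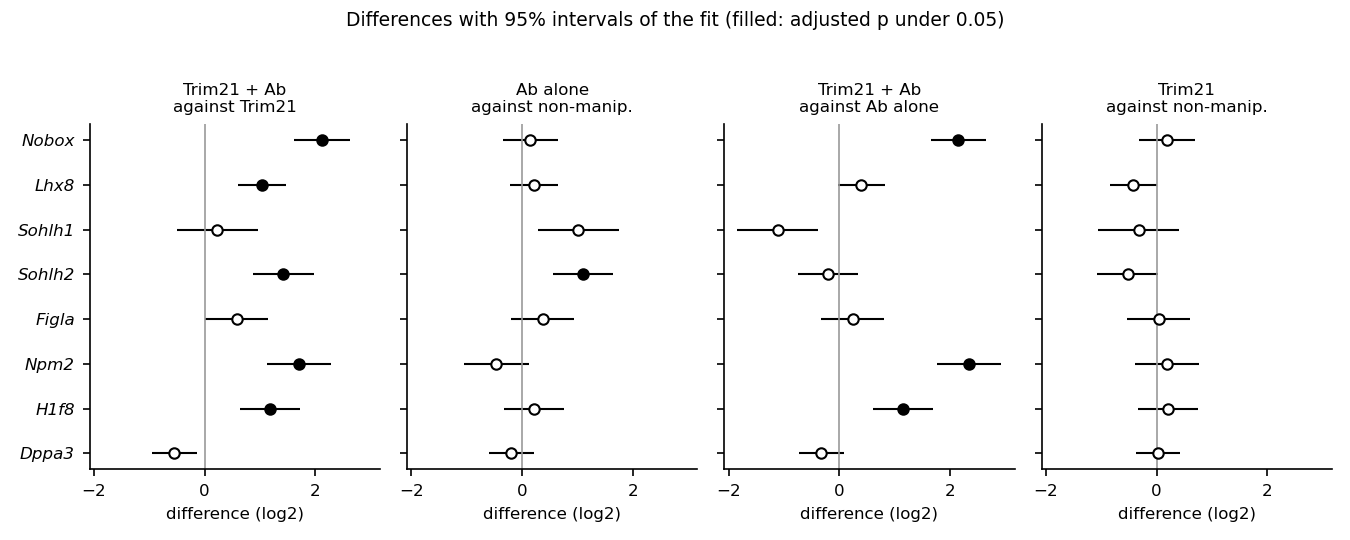
Differences of mean log2 level (x axis, log2 units) for each of the 8 genes in 4 comparisons of groups (1 panel each), with 95% intervals of limma's fit as lines and filled points where the adjusted p is under 0.05. Ab is the antibody. In Trim21 mRNA plus antibody against Trim21 mRNA, 5 genes have an adjusted p under 0.05, led by Nobox at 2.12 and Npm2 at 1.70, while in Trim21 mRNA against non-manipulated embryos none does.

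For the 5 members called in this comparison the scaling changed the size of the difference but not its direction. For Trim21 mRNA plus antibody against Trim21 mRNA, Npm2 was at 2.79 after quantile normalization and 2.77 after cyclic loess, H1f8 at 2.24 and 2.26, and Lhx8 at 1.75 and 1.65, each well above its value on the deposited scale. Nobox ranged from 1.91 after median centring to 2.95 after quantile normalization, and Sohlh2 from 1.22 to 1.70 over the same 2 scalings. All 5 kept their calls under each scaling. Over all genes, 20.7% of the calls in this comparison were in the higher direction once arrays were centred, against 48.5% with quantile normalization and 46.8% with cyclic loess. Sohlh1 was near 0 throughout, at 0.03 (median centring), −0.01 (quantile) and 0.09 (cyclic loess).

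**Figure D3:**
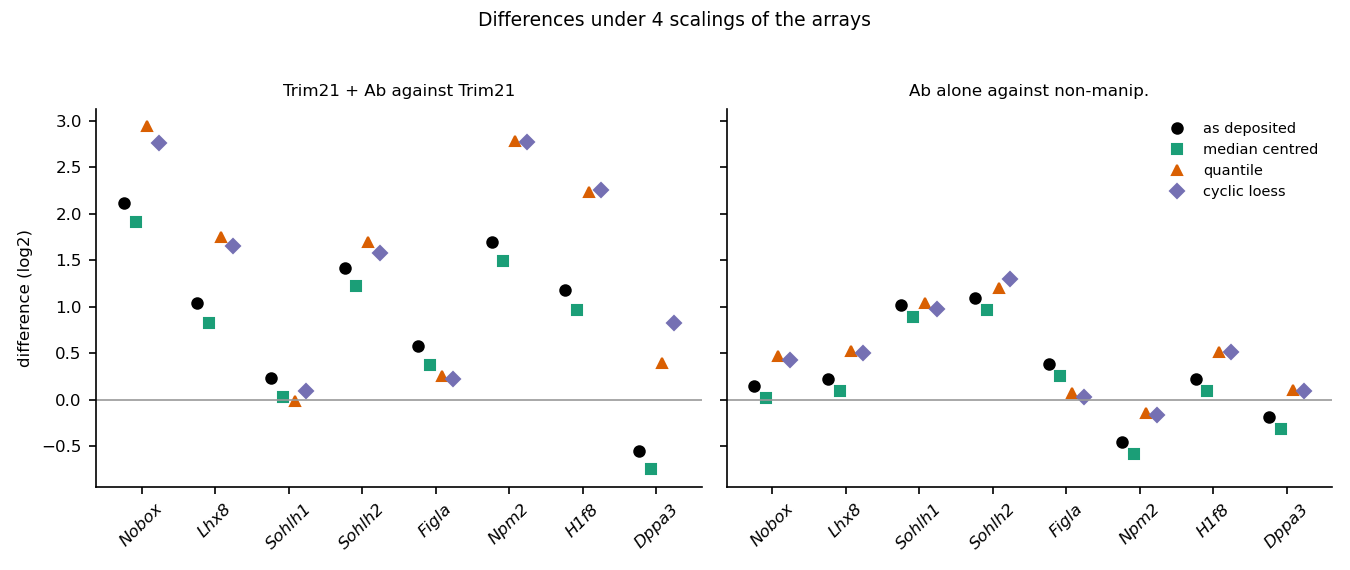
Difference of mean log2 level (y axis, log2 units) for each of the 8 genes on the deposited scale and after 3 other scalings, for Trim21 mRNA plus antibody against Trim21 mRNA (left) and antibody alone against non-manipulated embryos (right). On the left Nobox, Npm2, H1f8, Lhx8 and Sohlh2 are above 0 under all 4 scalings, whereas Dppa3 runs from −0.75 after median centring to 0.83 after cyclic loess.

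Trim21 mRNA by itself changed none of the 8 members against non-manipulated embryos by limma at an adjusted p under 0.05, and 0 had an unadjusted p under 0.05. In that comparison 0.00326% of all genes, 1 gene, were called. The largest member differences were −0.52 ± 0.23 for Sohlh2 (95% interval −1.07 to 0.02) and −0.42 ± 0.18 for Lhx8 (95% interval −0.85 to 0.01). The intervals of Nobox (−0.32 to 0.69) and Npm2 (−0.39 to 0.77) do not reach the differences seen with both agents. With a spread estimated for each group, limma called Sohlh2 (−0.53, adjusted p = 0.041) and Lhx8 (−0.42, adjusted p = 0.029) lower. Under that setting 12.2% of all genes were called. With only the groups compared in the fit, 8.20% of all genes and 0 members were called, so the share depended on the estimate of the spread.

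Against antibody alone, Trim21 mRNA plus antibody had 3 members higher (Nobox, Npm2 and H1f8) and 0 lower (1, Sohlh1, at an unadjusted p under 0.05), where 4.37% of all genes were called higher and 10.5% lower, 14.8% in all. The members' median was 0.32, against 0.05 for all genes. Sohlh2 (−0.21 ± 0.23) and Lhx8 (0.40 ± 0.18) were not called, and the 2 groups overlapped for Sohlh2. Against non-manipulated embryos 5 members were higher and 0 lower (1, Dppa3, at an unadjusted p under 0.05), where 15.1% of all genes were called higher and 16.6% lower, 31.7% in all, and the median was 0.76 against 0.24 for all genes. Comparisons with the same group share its pools, so these counts are not separate evidence. For antibody alone against non-manipulated embryos, 7.29% of all genes were called lower, and the members' median of 0.22 was near the 0.18 of all genes.

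The interaction was the difference between Trim21 mRNA plus antibody and Trim21 mRNA minus that between antibody alone and non-manipulated embryos. Only the second of these differences also sets injected against uninjected embryos. The part of injection therefore cannot be told apart from a dependence of the antibody's difference on Trim21 mRNA. The interaction was called for 2 members, Nobox (1.96 ± 0.30, limma adjusted p = 0.018) and Npm2 (2.16 ± 0.35, adjusted p = 0.022). There 0.625% of all genes were called higher and 3.46% lower, 4.08% in all. Lhx8 (0.82 ± 0.26, limma adjusted p = 0.17) and H1f8 (0.96 ± 0.32, adjusted p = 0.21) leaned the same way without passing. Sohlh2 (0.32 ± 0.32) and Figla (0.20 ± 0.33) had intervals that included 0, and so did Dppa3 (−0.35 ± 0.24) and Sohlh1 (−0.79 ± 0.43). The 2 calls were lost when any 1 array of Trim21 mRNA plus antibody, Trim21 mRNA or non-manipulated embryos was left out. The differences then ran from 1.91 to 2.01 for Nobox and from 2.01 to 2.31 for Npm2. A group had 1 pool left in these runs, and fewer of all genes were called too.

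The genes that these transcription factors drive in mouse ovaries were given by a list of 18, of which 17 were measured. With Trim21 mRNA plus antibody against Trim21 mRNA, 6 rose and 1 fell (median 0.63, against 0.21 for all genes). In this comparison 8.73% of all genes were called higher and 14.5% lower, the shares to set beside each list below. Rfpl4, an oocyte RING-finger gene that depends on Nobox in mice, stood at 14.96 and 15.10 with both agents, 13.60 and 14.15 with antibody alone, 12.58 and 12.72 with Trim21 mRNA, and 12.97 and 12.72 in non-manipulated embryos. Both pools with both agents were the highest, and the antibody-alone pools also lay above all 4 without antibody. It rose 5.21-fold against Trim21 mRNA (2.38 ± 0.22, limma adjusted p = 0.00043), and its call held in every alternative run. Bmp15, an oocyte growth factor, was 1.69 ± 0.29 higher (limma adjusted p = 0.0067), Gpr149, an oocyte receptor, 1.56 ± 0.26 (adjusted p = 0.0062) and Zp2, a zona pellucida protein, 0.93 ± 0.19 (adjusted p = 0.014). Pou5f1 and Fgf8 were the other 2 that rose. The calls of Bmp15 and Gpr149 were lost without Trim21 mRNA replicate 2 (limma adjusted p = 0.059 and 0.052).

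Zp3, another zona gene, went the other way. It stood at 11.03 and 10.69 with Trim21 mRNA plus antibody, 11.53 and 12.87 with antibody alone, 12.56 and 12.33 with Trim21 mRNA, and 13.27 and 13.19 in non-manipulated embryos. It fell by 1.59 on the log2 scale against Trim21 mRNA (difference −1.59 ± 0.40, limma adjusted p = 0.031), and the call was lost after quantile normalization (adjusted p = 0.22) and cyclic loess (0.27). After those 2 scalings, 13 of the 17 genes were called higher and 0 lower, with medians of 1.54 and 1.49. Over all 30701 genes, 3493 and 3212 were then called higher. With antibody alone against non-manipulated embryos 2.76% of all genes were called higher and 7.29% lower. Of the 17, 6 rose and 0 fell there (median 0.67, against 0.18 for all genes). These were Gdf9 (0.84 ± 0.14, limma adjusted p = 0.015), Gpr149 (1.49 ± 0.26, adjusted p = 0.019), Bmp15 (1.54 ± 0.29, adjusted p = 0.023), Oosp1 (1.18 ± 0.22, adjusted p = 0.023), Zp2 and Rfpl4, and each lost its call when 1 array or another was left out. With Trim21 mRNA plus antibody against antibody alone, 2 of the 17 were called higher and 3 lower (median −0.15, against 0.05 for all genes). There 4.37% of all genes were called higher and 10.5% lower. The 3 lower were Bmp15, Gdf9 and Oosp1 (−1.30 ± 0.29, −0.71 ± 0.14 and −0.87 ± 0.22, limma adjusted p = 0.028, 0.016 and 0.046). Nobox was higher in the same comparison, and whether the 17 genes followed its level was not tested. In Trim21 mRNA against non-manipulated embryos 0 of the 17 were called by limma, and 5 had an unadjusted p under 0.05.

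**Figure D4:**
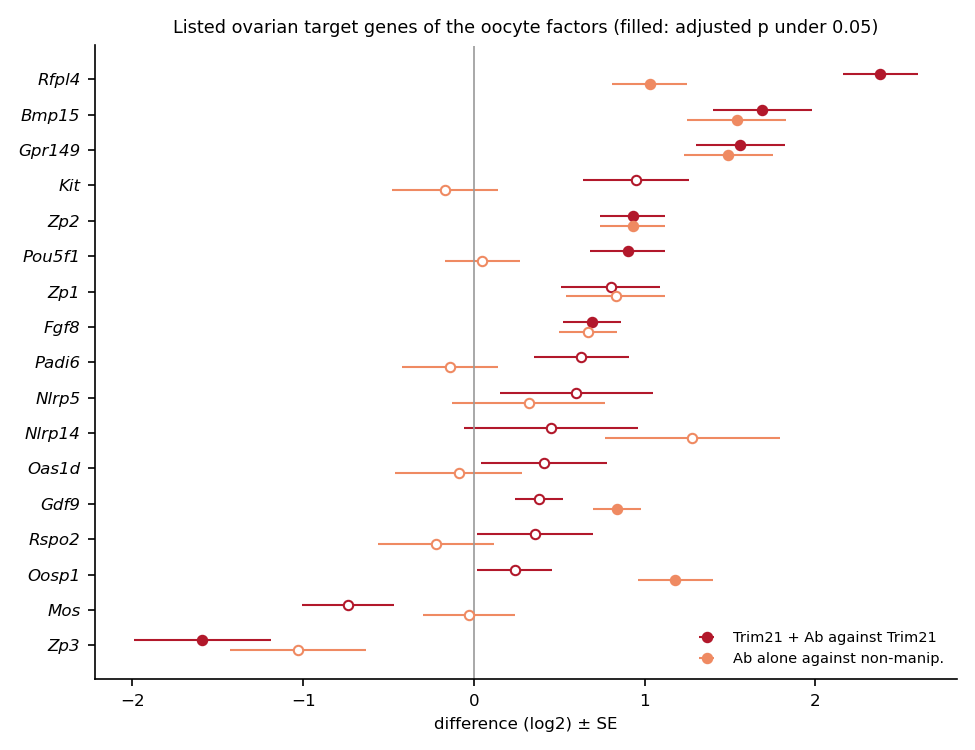
Differences of mean log2 level (x axis, log2 units) for the 17 listed ovarian target genes, for Trim21 mRNA plus antibody against Trim21 mRNA and for antibody alone against non-manipulated embryos, with lines of 1 standard error and points filled where the adjusted p is under 0.05. Rfpl4 is the highest for both agents (2.38) and Zp3 the lowest in both comparisons (−1.59 and −1.03).

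Partners and fellow regulators of the oocyte factors split. Of 10 listed, 9 were measured, and with Trim21 mRNA plus antibody against Trim21 mRNA 1 rose, 1 fell and 7 did not pass (median 0.35). These counts were near the shares of all genes, 8.73% called higher and 14.5% lower. Ybx2, the germ-cell protein that stabilizes stored oocyte RNA, stood at 12.49 and 12.29 with both agents, 11.29 and 11.04 with antibody alone, 10.61 and 10.61 with Trim21 mRNA, and 10.58 and 10.73 in non-manipulated embryos. Both pools with Trim21 mRNA plus antibody were above the rest, a 3.43-fold rise against Trim21 mRNA (1.78 ± 0.17, limma adjusted p = 0.00045) that held in every alternative run. Taf4b, a gonadal subunit of TFIID, fell (−1.48 ± 0.23, limma adjusted p = 0.0039), but not after quantile normalization (adjusted p = 0.32) or cyclic loess (0.37). With antibody alone against non-manipulated embryos 0 of the 9 were called by limma (median 0.05), and 3 had an unadjusted p under 0.05. Of all genes 2.76% were called higher in that comparison and 7.29% lower. There the 2 smallest unadjusted p belonged to Ybx2 (0.51 ± 0.17, limma adjusted p = 0.11) and Ldb1 (−0.84 ± 0.30, adjusted p = 0.13).

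Chromatin factors that the egg supplies changed in both directions. Of 19 listed and measured, 2 rose and 6 fell with Trim21 mRNA plus antibody against Trim21 mRNA (median −0.29). Of all genes 8.73% were called higher there and 14.5% lower. Uhrf1, which brings DNMT1 to newly copied DNA, rose by 1.98 ± 0.33 (limma adjusted p = 0.0055), and Bnc1, an oocyte zinc-finger protein, by 1.49 ± 0.20 (adjusted p = 0.0022). Smarca4, the BRG1 remodeler needed for zygotic genome activation, stood at 9.89 and 9.68 with both agents, 9.92 and 9.79 with antibody alone, 11.57 and 11.55 with Trim21 mRNA, and 11.51 and 11.47 in non-manipulated embryos. Both groups with antibody were thus below both without it, by −1.77 ± 0.15 (limma adjusted p = 0.00031) and −1.64 ± 0.15 (adjusted p = 0.0031). Trim28, a KRAB zinc-finger corepressor (−1.85 ± 0.20, limma adjusted p = 0.00095), and Ehmt2, an H3K9 methyltransferase (−1.40 ± 0.16, adjusted p = 0.001), fell as well. With antibody alone against non-manipulated embryos, 1 rose (Asf1a, 1.77 ± 0.41, limma adjusted p = 0.041) and 4 fell, among them Ehmt2 (−1.28 ± 0.16), Chaf1a (−1.26 ± 0.20) and Smarca4. Of all genes 2.76% were called higher in that comparison and 7.29% lower. The list's median for both agents turned to 0.61 (10 higher, 4 lower) after quantile normalization and 0.55 (9 higher, 4 lower) after cyclic loess. It was −0.50 (2 higher, 7 lower) after median centring. In the same order, these scalings called 3493 higher and 3707 lower, 3212 and 3644, and 1357 and 5184 of all 30701 genes.

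Relatives of Npm2, H1f8 and Dppa3 were listed too. Of 10 listed linker histone genes 7 were measured, and 0 were called with Trim21 mRNA plus antibody against Trim21 mRNA (median 0.42, limma), nor with antibody alone (median −0.03); unadjusted p under 0.05 numbered 2 and 0. The 2 smallest p with both agents belonged to H1f6 (0.48 ± 0.15, limma adjusted p = 0.056) and H1f10 (0.42 ± 0.17, adjusted p = 0.12). Of 6 nucleoplasmin and Dppa relatives 5 were measured, and 4 fell against Trim21 mRNA (median −2.04), where 14.5% of all genes were called lower. Dppa4, a chromatin factor of early embryos, stood at 7.25 and 7.12 with Trim21 mRNA plus antibody, 11.34 and 11.00 with antibody alone, 11.45 and 11.18 with Trim21 mRNA, and 11.84 and 11.71 in non-manipulated embryos. Dppa5a, an RNA-binding protein of pluripotent cells, stood at 14.19 and 13.86, 18.06 and 18.03, 18.27 and 18.30, and 18.38 and 18.33 in the same 4 groups. Only the pools with both agents were low for these 2 genes, 17.5-fold (−4.13 ± 0.19) and 19.2-fold (−4.26 ± 0.16) below Trim21 mRNA, each with a limma adjusted p of 6.5e-05. Npm1, the nucleolar relative of Npm2, fell by 1.79 (difference −1.79 ± 0.16, limma adjusted p = 0.00035), and Dppa2 by 2.04 (−2.04 ± 0.23, adjusted p = 0.001). Both lost limma's call after cyclic loess (limma adjusted p = 0.09 and 0.089), and Dppa2 also after quantile normalization (0.061). With antibody alone, Dppa2 was the 1 relative called (−1.10 ± 0.23, limma adjusted p = 0.03), and the list median was −0.31. Of all genes 2.76% were called higher in that comparison and 7.29% lower.

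The gene most alike to Nobox over the 8 arrays, by the root mean square difference of centred levels among 9127 genes, was Spred2 (0.15, against a span of 2.30 between the group means of Nobox). Izumo1r, the egg receptor for sperm also called Juno, came second (0.17) and Arntl2 next (0.21). The group means of Izumo1r were 9.06 with Trim21 mRNA plus antibody, 7.29 with antibody alone, 6.91 with Trim21 mRNA and 6.82 in non-manipulated embryos. Spred2 was also the gene most alike to Npm2 (0.19), followed by Map3k12 (0.20) and Sebox (0.23), an oocyte homeobox gene. Sohlh2 was most like Obox1 (0.15), Usp46 (0.17) and Obox2 (0.17); Obox1 and Obox2 are oocyte homeobox genes of 1 family with similar sequences. Obox1 had group means of 15.71, 15.91, 14.30 and 14.95 in the same order of groups, so that both groups with antibody were high. Lhx8 was most like Rab38 (0.07), Txndc5 (0.09) and Rragc (0.11). Sohlh1 was most like Fnta (0.09), Cdkal1 (0.12) and Vdac2 (0.12), and H1f8 most like Mir7058 (0.13), Heatr6 (0.16) and Cnn1 (0.17). The group means of Figla and Dppa3 spanned 0.61 and 0.54, too little for such a ranking.

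Stage and cell-type markers moved beside these results. With both agents against Trim21 mRNA 8.73% of all genes were called higher and 14.5% lower. For antibody alone against non-manipulated embryos the shares were 2.76% and 7.29%. Of 10 measured 2-cell-stage markers, 8 were higher with Trim21 mRNA plus antibody than with Trim21 mRNA and 0 lower (median 1.78), among them Tcstv3 (1.81 ± 0.21, limma adjusted p = 0.0012) and Zscan4d (1.73 ± 0.22, adjusted p = 0.002). With antibody alone 3 of the 10 were higher than in non-manipulated embryos (median 0.86), led by Tdpoz3 (2.22 ± 0.29, limma adjusted p = 0.0074). The log2 of their summed level was 15.83 to 16.07, 14.89 to 15.15, 13.89 to 14.12 and 14.24 to 14.26 in Trim21 mRNA plus antibody, antibody alone, Trim21 mRNA and non-manipulated pools. Of 5 oocyte markers, all in the list of target genes above, 2 rose and 1 fell with both agents (median 0.80), and 3 rose with antibody alone (median 0.84), with sums of 17.00 to 17.78, 18.59 to 18.68, 15.70 to 16.12 and 17.22 in the 4 groups. The part of stage and of cleavage in the members' differences was not tested.

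Of 13 measured cumulus and granulosa markers, which sample cells that can stick to eggs, 1 rose (Has2, 0.56 ± 0.16) and 1 fell (Amhr2, −3.33 ± 0.37) with both agents (median 0.16, 9 of 13 differences positive). Their summed level was 9.44 to 9.88 with Trim21 mRNA plus antibody, 11.40 to 11.63 with antibody alone, 11.79 to 11.86 with Trim21 mRNA and 12.28 to 12.78 in non-manipulated embryos. The defining markers Fshr, Foxl2 and Amh ran from 4.58 to 5.07, 3.83 to 4.39 and 3.37 to 3.92 over all pools, with no detection call to set them against. With antibody alone, Cyp11a1 (3.14 ± 0.28, limma adjusted p = 0.003) and Star (0.66 ± 0.14, adjusted p = 0.03) rose and Amhr2 fell (−2.06 ± 0.37, adjusted p = 0.02; median 0.12). Of 10 sperm markers 2 rose with both agents (Odf2 and Smcp, median 0.33) and 0 were called with antibody alone (median 0.24; 0 at an unadjusted p under 0.05 too). Of 8 oviduct markers 1 fell with both agents (Epcam, −2.34 ± 0.19, limma adjusted p = 0.00028, median 0.02) and 0 were called with antibody alone (median 0.17; 2 at an unadjusted p under 0.05). Of 7 blood and immune markers 0 were called in either comparison (medians 0.09 and 0.15; 2 and 1 at an unadjusted p under 0.05). Their summed levels ran from 9.28 to 10.41, 9.23 to 11.01 and 7.67 to 8.00 over all pools, and the part of other cells in the members' differences was not tested.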

How the data were processed

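RNA of 8 pools of 100 embryos was labelled with a GeneChip WT Pico kit, per the labels' protocols. The authors deposited log2 values per transcript cluster, made with Affymetrix Expression Console per the submitters' processing notes, which give no version or summarization method. Of 65956 clusters, 1 with a value over 100, which no log2 level can be, was left out. Clusters annotated to 1 gene gave 30701 genes (1789 clusters had an older symbol updated), with the highest mean over 8 arrays used for the 441 genes on several clusters. The array design's genome build is not given in the sources used here, so no cluster positions are printed.

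Differences were fitted with lmFit and eBayes of limma 3.58.1 (R 4.3.3), with two-sided tests: 4 group means over all 8 arrays, 6 comparisons, Benjamini-Hochberg adjustment over all genes in each, calls at an adjusted p under 0.05. The fit was tested on simulated data. No filter or scaling was added. Groups of 2 allow no exact permutation test that reaches the threshold. Replicate numbers were not used as pairs, since deviations of same-numbered arrays correlated at −0.191 to 0.143 between groups.

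Members, lists, tests and alternatives were chosen with earlier results of these data known. Named genes were the members, per list the 4 called genes with the smallest p (the 2 smallest p where none was called), and the 3 genes most alike to a member whose group means spanned over 1, among genes with a mean level of at least 6. Uhrf1, Asf1a, Zp3, Pou5f1, Fgf8, Rfpl4 and Zp2 in the antibody-alone comparison, Bmp15, Gdf9 and Oosp1 against antibody alone, and the markers named beside them outside this rule were named after their values were seen. Alternatives were 3 scalings, a minimum mean level of 5, the mean of a gene's clusters, all clusters, a trended robust prior, a spread for each group, only the groups compared, a replicate block, each array left out, and, chosen after seeing the data, both antibody-alone arrays left out.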

Additional observations from a re-analysis of the deposited data

Results flagged for a closer look

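The interaction of antibody and Trim21 mRNA in limma's fit, adjusted over all genes, was passed by 2 of the 8 members, where 4.08% of all genes were called. It gave 1.96 for Nobox, which was 2.12 higher with Trim21 mRNA plus antibody than with Trim21 mRNA and 0.15 higher with antibody alone than in non-manipulated embryos. For Npm2 it gave 2.16, from differences of 1.70 and −0.46. Both calls were lost in 6 of 17 alternative settings, those that left out any 1 array of Trim21 mRNA plus antibody, Trim21 mRNA or non-manipulated embryos. Nobox was then at 1.91 to 2.01 and Npm2 at 2.01 to 2.31, and fewer of all genes were called in these settings too. Both tests rest on groups treated on separate days, and day and group cannot be told apart. The non-manipulated embryos were not injected, so the part of injection cannot be told apart either.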

How the results depend on the processing

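Of 874 values of single genes under the alternatives, 769 kept their call and direction, 47 lost the call, 33 gained one and 25 changed sign, 21 of them with neither value called. Nobox and Npm2 kept their calls in every alternative run for Trim21 mRNA plus antibody against each of the 3 other groups. The number of arrays limits precision, and where no cause is named it was not tested.

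The count of members called for Trim21 mRNA plus antibody against Trim21 mRNA was 5 and ran from 2 (without Trim21 mRNA replicate 1) to 7 (without Trim21 mRNA plus antibody replicate 1) when 1 array was left out. For antibody alone against non-manipulated embryos it was 1, and 0 after median centring, with a spread for each group, with only the groups compared and with the replicate block, and 0 to 3 with 1 array left out. With only the groups compared, antibody alone against non-manipulated embryos had 0 calls among all 30701 genes, so that 0 says nothing about members. Of all genes, 10.1% were called in that comparison after median centring, 3.83% with a spread for each group and 7.56% with the replicate block. Leaving out 1 array left 1 pool in a group, and the share of all genes called moved too in the comparisons above. For Trim21 mRNA against non-manipulated embryos the count of members was 0. With a spread for each group it was 2, where 12.2% of all genes were called. Against antibody alone the count for Trim21 mRNA plus antibody was 3, where 14.8% of all genes were called. After cyclic loess it was 6 (5 higher, 1 lower), where 14.5% were called. Set against non-manipulated embryos, the count for Trim21 mRNA plus antibody was 5, where 31.7% were called. For the interaction it was 2, where 4.08% were called, and 4 after quantile normalization, where 4.68% were. The counts of these last 3 comparisons also moved when 1 array was left out.

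Direction turned for Dppa3 after quantile normalization and cyclic loess: 0.39 and 0.83 for Trim21 mRNA plus antibody against Trim21 mRNA, 0.35 and 0.77 when set against antibody alone, 0.45 and 0.86 when set against non-manipulated embryos, 0.10 and 0.09 for antibody alone against non-manipulated embryos, and 0.29 and 0.75 for the interaction. For Trim21 mRNA against non-manipulated embryos, Figla turned to −0.09 (quantile), −0.01 (centred) and −0.08 (loess), and ran from −0.02 to 0.09 with 1 array left out, while Dppa3 turned to −0.02 (centred) and ran from −0.02 to 0.06. For Trim21 mRNA plus antibody against Trim21 mRNA, Sohlh1 turned to −0.01 (quantile). Against antibody alone Sohlh2 turned to 0.07 (quantile). With 1 array left out, Sohlh2 ran from −0.48 to 0.06 and Figla from −0.09 to 0.57 there, Sohlh1 from −0.25 to 0.06 against non-manipulated embryos, and Figla from −0.13 to 0.53 in the interaction. For antibody alone against non-manipulated embryos Nobox ran from −0.14 to 0.45 and H1f8 from −0.03 to 0.47.

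Replicate numbers share only a number here, and the replicate block moved the count of calls in antibody alone against non-manipulated embryos to 0 (Sohlh2, limma adjusted p = 0.054). With the block Lhx8 lost its call against non-manipulated embryos (limma adjusted p = 0.058) and Sohlh1 gained one for Trim21 mRNA plus antibody against antibody alone (−1.11, limma adjusted p = 0.044). A minimum mean level of 5 left out Figla, and the interaction needs all 4 groups, so these settings gave no value there.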

Other observations

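H1f1, a somatic linker histone gene, was at 13.02 and 13.54 with Trim21 mRNA plus antibody, 11.65 and 10.70 with antibody alone, 12.97 and 13.19 with Trim21 mRNA, and 11.72 and 11.37 in non-manipulated embryos. All 4 pools with Trim21 mRNA lay above all 4 without it, although Trim21 mRNA against non-manipulated embryos (1.54 ± 0.34) did not pass the threshold (limma adjusted p = 0.51). H1f1 was 2.10 ± 0.34 higher with Trim21 mRNA plus antibody than with antibody alone (limma adjusted p = 0.0078), and 1.73 ± 0.34 higher than in non-manipulated embryos (limma adjusted p = 0.01). It was singled out after its values were seen.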
